A study of Mus musculus with 2 samples.

Results

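The genes examined were the enzymes and regulators of de novo lipogenesis, read by gene symbol from spatial transcriptomics (ST) of mouse liver. The list held 10 genes, picked by symbol for their place in the pathway, with earlier results of these data known. Of these, 9 were among the 19465 genes of the count tables, and all 9 averaged 10 or more counts per 1000000 UMIs (CPM). They were Acly, Acaca, Fasn, Scd1, Elovl5, Me1, Thrsp, Srebf1 and Mlxipl. Elovl6, which elongates palmitate to stearate, was not analysed here.

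De novo lipogenesis builds fatty acids from carbohydrate carbon. Citrate exported from mitochondria is split to acetyl-CoA, acetyl-CoA is carboxylated to malonyl-CoA, and fatty acid synthase joins these units into palmitate with NADPH as the reductant, after which elongases and desaturases lengthen and unsaturate the chain. In liver, insulin acts on the pathway through the transcription factor SREBP-1 (Srebf1) and sugar through ChREBP (Mlxipl), and the enzymes of the pathway respond to feeding and fasting and are distributed unevenly between the portal and the central end of the lobule.

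Formalin-fixed liver from 1 AEG-1ΔMAC mouse was set beside that from 1 AEG-1fl/fl mouse, both measured by Visium. Both carry a floxed Mtdh gene, which encodes AEG-1, on a C57BL/6J background. In AEG-1ΔMAC it is deleted by Cre expressed from the Lyz2 locus, so the deletion is aimed at macrophages and other myeloid cells and not at hepatocytes, and AEG-1fl/fl is the control without Cre. The labels give both mice an age of 27 weeks and HF/HSD feeding (a high fat/high sugar diet) that began at 7 weeks, but the study's text describes the mice of this assay as littermates on control diet. The diet was therefore not settled here, and it bears the same label in both groups. Each genotype had 1 library, so mouse, section, capture area and genotype cannot be told apart, no test of genotype was possible, and the intervals given below are 95% intervals for counting error only.

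After filtering, the AEG-1ΔMAC section had 2140 spots with 45453286 unique molecular identifiers (UMIs) and the AEG-1fl/fl section had 2540 spots with 50322850 UMIs. The median spot held 20929.5 and 18285 UMIs, respectively. Each spot covers a small region, often with several cells of different types. The libraries shared 1782 spot barcodes, because every capture area carries the same set, and 0 of those had identical counts. The 5 hepatocyte markers made up 142642 CPM in AEG-1ΔMAC against 205276 CPM in AEG-1fl/fl, with Alb alone at 8.80% and 14.2% of the UMIs, respectively. Of the 5, 2 had log2 ratios above the median of all genes, and the part of this shift in the values below was not tested beyond the other scalings. The CPM of a library sum to a fixed total. The median log2 ratio of the 6933 genes averaging 10 CPM or more was 0.15, and each ratio below (log2 of CPM in AEG-1ΔMAC over CPM in AEG-1fl/fl) is read beside that value. The same genes had log2 ratios from -0.29 at the 5th percentile to 0.54 at the 95th. Mtdh itself had 66.3 and 60.2 CPM, a log2 ratio of 0.14, and in a whole-tissue spot this value does not check a deletion in myeloid cells. A lower level in a spot can reflect fewer cells of a type or less RNA per cell, which cannot be told apart.

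The stretch before the start of transcription is shown for Acly, Fasn and Elovl5 from RefSeq (build GRCm38.p6), because these 3 enzymes were lower in AEG-1ΔMAC by the largest amounts after Scd1. Each line gives the 250 bases before the start, 5′ to 3′ on the strand of the gene, and capitals mark matches on either strand to CACGTG (the E-box), TCACNCCAC (a sterol regulatory element), CCAAT or GGGCGG (the GC box).
Acly (chr11:100528001-100528250, minus strand): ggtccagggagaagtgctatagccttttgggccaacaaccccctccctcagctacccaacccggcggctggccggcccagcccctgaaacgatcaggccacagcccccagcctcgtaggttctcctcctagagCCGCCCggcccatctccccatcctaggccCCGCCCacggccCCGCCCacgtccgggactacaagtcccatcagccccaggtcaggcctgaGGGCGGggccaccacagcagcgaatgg
Fasn (chr11:120824548-120824797, minus strand): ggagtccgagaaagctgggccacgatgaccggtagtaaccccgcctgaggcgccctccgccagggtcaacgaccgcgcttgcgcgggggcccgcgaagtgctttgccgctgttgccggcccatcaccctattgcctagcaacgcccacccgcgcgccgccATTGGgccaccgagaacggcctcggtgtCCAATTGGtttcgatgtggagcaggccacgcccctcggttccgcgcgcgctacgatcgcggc
Elovl5 (chr9:77917115-77917364, plus strand): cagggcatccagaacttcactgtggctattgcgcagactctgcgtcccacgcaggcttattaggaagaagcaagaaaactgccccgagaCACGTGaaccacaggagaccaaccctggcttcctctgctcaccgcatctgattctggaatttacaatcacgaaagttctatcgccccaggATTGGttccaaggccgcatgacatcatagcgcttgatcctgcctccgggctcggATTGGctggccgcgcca

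Acly held 4 GC boxes and no CCAAT. Fasn held 3 CCAAT matches, of which 2 overlap on opposite strands in CCAATTGG. Elovl5 held 1 E-box and 2 CCAAT matches. The window of Thrsp, which was higher in AEG-1ΔMAC, also held 2 CCAAT matches, but it lies partly inside the longer first exon that GENCODE gives the gene. The letters of the sterol regulatory element were found in none of these 4 windows and in 1 of the 2 windows of Mlxipl. Of 32851 promoters of the same length, 6.02% held the E-box, 1.05% the sterol regulatory element, 33.8% CCAAT and 32.7% the GC box. CCAAT was thus found both before genes that were lower and before the gene that was higher. A match describes letters and is not evidence of binding.

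The enzymes were compared first, in the order of the pathway. Acly, ATP citrate lyase, splits citrate to cytosolic acetyl-CoA (ENSMUSG00000020917, chr11:100476353-100528000, minus strand, protein-coding; this and the following gene positions are on GRCm38). Acly had 7741 UMIs, or 170.3 CPM (interval 166.5 to 174.1), in AEG-1ΔMAC against 14766 UMIs, or 293 CPM (289 to 298), in AEG-1fl/fl. The control level was 1.72-fold higher, and the log2 ratio was -0.78, or -0.93 relative to the median of all genes. Of the 6933 genes, 64 had a lower ratio.

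Acaca, acetyl-CoA carboxylase 1, makes malonyl-CoA and commits the carbon to fatty acid synthesis (ENSMUSG00000020532, chr11:84129672-84401651, plus strand). It had 97.4 CPM (94.5 to 100.3) in AEG-1ΔMAC against 95.5 CPM (92.8 to 98.3) in AEG-1fl/fl, so the intervals overlapped. The log2 ratio was 0.03 (-0.03 to 0.09), or -0.12 relative to the median of all genes, and 25.2% of genes had a lower ratio. Its direction depended on the scaling: it was -0.10 with TMM factors.

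Fasn, fatty acid synthase, makes palmitate (ENSMUSG00000025153, chr11:120805846-120824547, minus strand). It had 94.6 CPM (91.8 to 97.4) in AEG-1ΔMAC against 129.7 CPM (126.6 to 132.9) in AEG-1fl/fl. The log2 ratio of -0.46 (-0.51 to -0.40) lay between those of Acly and Acaca, and the control level was 1.37-fold higher. The intervals did not overlap, but Fasn did not reach a 1.5-fold difference. Relative to the median of all genes, however, its log2 ratio was -0.60, which is past 1.5-fold.

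Scd1, stearoyl-CoA desaturase 1, puts a double bond into palmitate and stearate to give the monounsaturated acids used for triglycerides (ENSMUSG00000037071, chr19:44394455-44407879, minus strand). It had 35426 UMIs, or 779 CPM (771 to 788), in AEG-1ΔMAC against 120808 UMIs, or 2401 CPM (2387 to 2414), in AEG-1fl/fl. The control level was 3.08-fold higher, and the log2 ratio of -1.62 (-1.64 to -1.61) was -1.77 relative to the median of all genes, with 10 of 6933 genes lower. UMIs of the other desaturases of the family were few: Scd2 had 214 and 369 UMIs, and Scd3 and Scd4 had at most 4 UMIs in each library.

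Elovl5, an elongase of polyunsaturated fatty acids (ENSMUSG00000032349, chr9:77917364-77984519, plus strand), had 218 CPM (214 to 222) in AEG-1ΔMAC against 404 CPM (399 to 410.1) in AEG-1fl/fl. The log2 ratio of -0.89 (-0.93 to -0.86) was a 1.86-fold higher control level. Among the enzymes, Elovl5 was next to Scd1 in the size of its difference. Its substrates derive from essential fatty acids of the diet.

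Me1, cytosolic malic enzyme, supplies NADPH for chain synthesis (ENSMUSG00000032418, chr9:86581371-86695953, minus strand). Unlike Acly, Fasn, Scd1 and Elovl5, it was on the higher side in AEG-1ΔMAC, with 71.0 CPM (68.6 to 73.5) against 57.5 CPM (55.5 to 59.7). The log2 ratio was 0.30 (0.23 to 0.38), or 0.16 relative to the median of all genes, and 80.4% of genes had a lower ratio.

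Thrsp, the thyroid hormone responsive protein Spot 14, is a small lipogenic regulator induced by thyroid hormone and carbohydrate feeding (ENSMUSG00000035686, chr7:97412938-97417730, minus strand). It was opposite to Scd1, Elovl5, Acly and Fasn: 4629 UMIs, or 101.8 CPM (98.9 to 104.8), were found in AEG-1ΔMAC against 2121 UMIs, or 42.1 CPM (40.4 to 44.0), in AEG-1fl/fl. The level was 2.42-fold higher in AEG-1ΔMAC, a log2 ratio of 1.27 (1.20 to 1.35), and 50 of 6933 genes had a higher one.

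The transcription factors stayed near the median of all genes. Srebf1, which encodes SREBP-1 (ENSMUSG00000020538, chr11:60199089-60222581, minus strand), had 42.8 CPM (40.9 to 44.7) and 36.2 CPM (34.6 to 37.9) in AEG-1ΔMAC and AEG-1fl/fl, respectively, a log2 ratio of 0.24 (0.15 to 0.33). Mlxipl, which encodes ChREBP (ENSMUSG00000005373, chr5:135089890-135138382, plus strand), had 169 CPM (165 to 173) and 147 CPM (144 to 150.3), a log2 ratio of 0.20 (0.16 to 0.25). Set against the median of all genes, Srebf1 was at 0.09 and Mlxipl at 0.06. The transcript levels of both factors were thus not on the side of Scd1, Elovl5, Acly and Fasn.

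**Figure D1:**
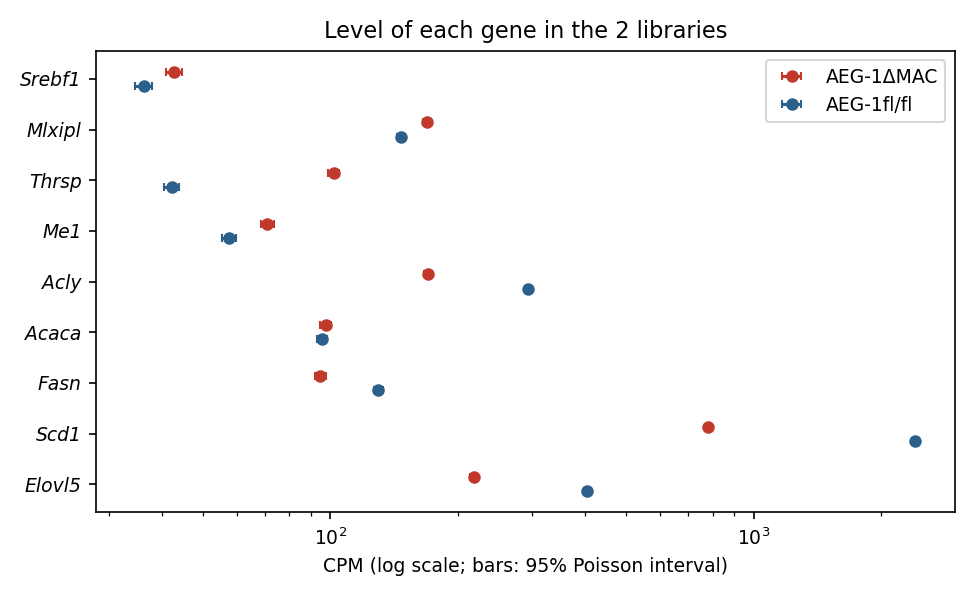
CPM of each gene (horizontal log axis) in the AEG-1ΔMAC and AEG-1fl/fl libraries, 1 library each, with 95% Poisson intervals as bars. Scd1 lies at 779 against 2401 CPM and Thrsp at 101.8 against 42.1 CPM, whereas the points of Acaca overlap; levels of different genes are not comparable, since each depends on its probes.

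Counted over the list, 3 of the 9 measured genes (Scd1, Elovl5 and Acly) were at least 1.5-fold lower in AEG-1ΔMAC with the interval on the same side, where 1.79% of the 6933 genes were. On the other side, 1 of 9 (Thrsp) was at least 1.5-fold higher, where 4.3% of all genes were. The genes lay on both sides of the median of all genes, with 5 below it (Scd1, Elovl5, Acly, Fasn and Acaca) and 4 above it (Thrsp, Me1, Srebf1 and Mlxipl). Their median log2 ratio was 0.03, that of Acaca, which stands in the middle of the order. Neighbours in that order were not all apart: the intervals of Mlxipl, Srebf1 and Me1 overlapped from one to the next.

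**Figure D2:**
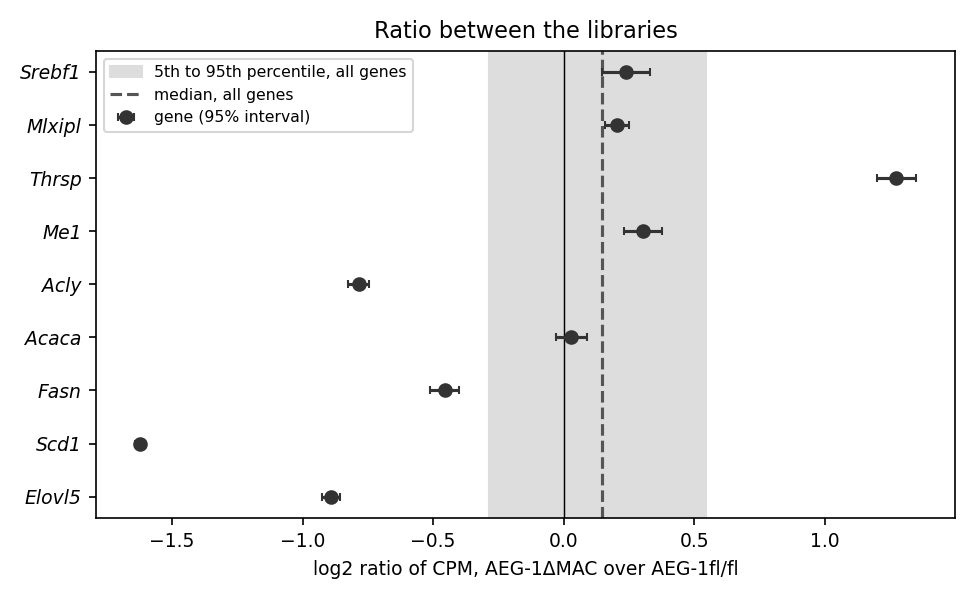
Log2 ratio of CPM between AEG-1ΔMAC and AEG-1fl/fl, with the 95% interval of each gene, the median of all genes at 0.15 (dashed) and their 5th to 95th percentile, -0.29 to 0.54 (grey). Scd1, Elovl5, Acly and Fasn lie left of the grey band and Thrsp right of it, and Acaca, Me1, Srebf1 and Mlxipl lie inside it.

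To see whether the differences came from a few spots, every spot was thinned to 10000 UMIs, which left out the 26 shallower AEG-1ΔMAC spots and 106 such spots of the control. For Scd1, the 10th percentile, median and 90th percentile were 4, 7 and 12 UMIs per spot in AEG-1ΔMAC against 15, 23 and 34 in AEG-1fl/fl. The spots of the libraries thus hardly overlapped: 3.64% of AEG-1ΔMAC spots reached the 10th percentile of AEG-1fl/fl, while 4.48% of the control spots were at or under the 90th percentile of AEG-1ΔMAC. The median was 2 against 4 UMIs for Elovl5 and 1 against 3 for Acly, with overlapping ranges. For Thrsp it was 1 UMI in AEG-1ΔMAC against 0 in AEG-1fl/fl.

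Several of the genes also varied more between spots than counting alone gives. Scd1 was highest by variance over mean, but not by the coefficient of variation given below. The variance of thinned counts over their mean, which is near 1 when only counting varies, was 1.44 for Scd1 in AEG-1ΔMAC against 2.61 in AEG-1fl/fl, 1.11 and 1.22 for Fasn, and 1.14 and 1.10 for Acly. Mlxipl had 1.08 in each library and Thrsp 1.07 and 1.05. Over the 2181 genes averaging 50 CPM or more the median was 1.03 and 1.02. Expressed as the coefficient of variation left after counting noise, Scd1 was alike in both libraries (24.0% and 26.0%) at a 3.08-fold difference in level. The corresponding median of the 2181 genes was 13.1% and 12.3%. Fasn (34.0% and 42.0%), Acly (28.0% and 19.0%), Thrsp (25.5% and 36.3%), Me1 (16.3% and 41.2%) and Mlxipl (22.2% and 24.0%) were above it too. Elovl5 and Srebf1 were below it, and Acaca (18.5% and 0%) was above it in AEG-1ΔMAC only. For Me1 the variance over the mean was 1.02 in AEG-1ΔMAC, not above the median of 1.03 there, and 1.10 in AEG-1fl/fl.

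Zonation was examined next, since lipogenic genes are distributed along the lobule. Each spot was placed by its zone 3 (pericentral) markers Cyp2e1, Cyp1a2 and Oat minus its zone 1 (periportal) markers Arg1, Cyp2f2, Gls2, Hal, Hsd17b13 and Pck1, none of which is a lipogenic gene listed here, and spots were ranked within a library into 3 equal parts. Zonation is given as the log2 ratio of CPM, zone 3 part over zone 1 part. Landmark genes outside the ranking checked it: the 6 zone 3 landmarks had a median of 2.25 in AEG-1ΔMAC against 2.40 in AEG-1fl/fl, and the 8 zone 1 landmarks had -1.26 and -0.63. The zone 1 landmarks were therefore more strongly zoned in AEG-1ΔMAC, and what part this had in the differences below was not tested.

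Acly was the most strongly zoned of the 9 genes in AEG-1ΔMAC. There it went from 225 CPM in the zone 1 part through 169.9 to 115.8 CPM in the zone 3 part, a zonation of -0.96 (-1.04 to -0.87). In AEG-1fl/fl it went from 304 through 299.5 to 276 CPM, a zonation of -0.14 (-0.20 to -0.08). Zonation differed by -0.82 (-0.92 to -0.71), and 16 of 6933 genes had a lower difference. In 10 equal bins of the index the highest Acly level was 2.74-fold the lowest in AEG-1ΔMAC, with 261 CPM at the zone 1 end and 95.4 CPM at the zone 3 end, and 1.27-fold in AEG-1fl/fl, with 319 and 252 CPM. The gap between the genotypes was thus narrower near the portal end and wider near the central end, with log2 ratios of -0.44, -0.82 and -1.25 from the zone 1 part through the middle to the zone 3 part.

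Fasn was zoned in opposite directions in the sections. Its zonation was -0.42 (-0.53 to -0.32) in AEG-1ΔMAC, with 110.6, 90.6 and 82.4 CPM in the 3 parts, and 0.20 (0.11 to 0.28) in AEG-1fl/fl, with 125, 121.6 and 143 CPM. In bins, however, the control profile was high at both ends, with 146.6 CPM in bin 1, 109.7 CPM in bin 4 and 145.4 CPM in bin 10, and between the outer 10% of spots its zonation was -0.013. The profile in AEG-1ΔMAC, from 134.9 CPM in bin 1 to 75.9 CPM in bin 9, had no such return. Log2 ratios went from -0.18 in the zone 1 part through -0.42 to -0.80 in the zone 3 part, so Fasn passed 1.5-fold in the zone 3 part alone.

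Thrsp shared this reversal although it was higher and not lower in AEG-1ΔMAC. Its zonation was -0.29 (-0.39 to -0.18) in AEG-1ΔMAC, with 114.3, 97.6 and 93.7 CPM, and 0.32 (0.16 to 0.47) in AEG-1fl/fl, with 38.3, 40.6 and 47.7 CPM. Bin 1 had 143.8 CPM in AEG-1ΔMAC, the highest of its bins, and 35.7 CPM in AEG-1fl/fl, the lowest of its bins. The log2 ratio accordingly went from 1.58 in the zone 1 part to 0.97 in the zone 3 part. With the outer 10% of spots at each end, the zonation was -0.60 and 0.63.

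Acaca, close to equal between the sections as a whole, was not so along the lobule. In AEG-1ΔMAC it had 109.8, 97.7 and 84.6 CPM in the 3 parts, a zonation of -0.38 (-0.48 to -0.27), and in AEG-1fl/fl it had 95.8, 95.3 and 95.5 CPM, a zonation of -0.00 (-0.11 to 0.10). The log2 ratio was 0.20 (0.10 to 0.30) in the zone 1 part and -0.17 (-0.28 to -0.07) in the zone 3 part. Relative to the median of all genes in each part these ratios were 0.06 and -0.32, and with TMM factors the zone 1 ratio was 0.07 (-0.03 to 0.17), an interval that holds 0.

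Scd1 and Elovl5 were lower in every part. Scd1 had log2 ratios of -1.62, -1.48 and -1.77 in the 3 parts, with 716, 856 and 765 CPM in AEG-1ΔMAC against 2198, 2391 and 2616 CPM in AEG-1fl/fl. Its profile was humped in AEG-1ΔMAC, highest at 882 CPM in bin 6, whereas AEG-1fl/fl was highest at 2673 CPM in bin 9. Elovl5 had log2 ratios of -0.80, -0.86 and -1.03, and it was almost level in AEG-1fl/fl (zonation 0.01) and slightly higher near zone 1 in AEG-1ΔMAC (-0.22).

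Me1 and Mlxipl were zoned towards zone 3 in both sections. Me1 had a zonation of 0.72 (0.59 to 0.84) in AEG-1ΔMAC, with 54.7, 68.6 and 89.8 CPM, and of 0.96 (0.83 to 1.10) in AEG-1fl/fl, with 40.6, 53.3 and 79.1 CPM. Mlxipl had a zonation of 0.48 (0.40 to 0.57), with 139.1, 174.1 and 194.5 CPM, and of 0.32 (0.24 to 0.41), with 131.2, 145.5 and 164.3 CPM. Mlxipl was the gene of the list whose zonation was more positive in AEG-1ΔMAC, by 0.16 (0.04 to 0.27). By bins, the ChREBP transcript was lowest in bin 1 in both libraries. Acly and Fasn were highest in bin 1 in both libraries, although Fasn in AEG-1fl/fl had 146.6 CPM there and 145.4 CPM in bin 10. Acaca, Elovl5 and Thrsp were highest in bin 1 in AEG-1ΔMAC alone, and Srebf1 in AEG-1fl/fl alone. Srebf1 was slightly higher near zone 1 in both sections, at -0.18 and -0.17.

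**Figure D3:**
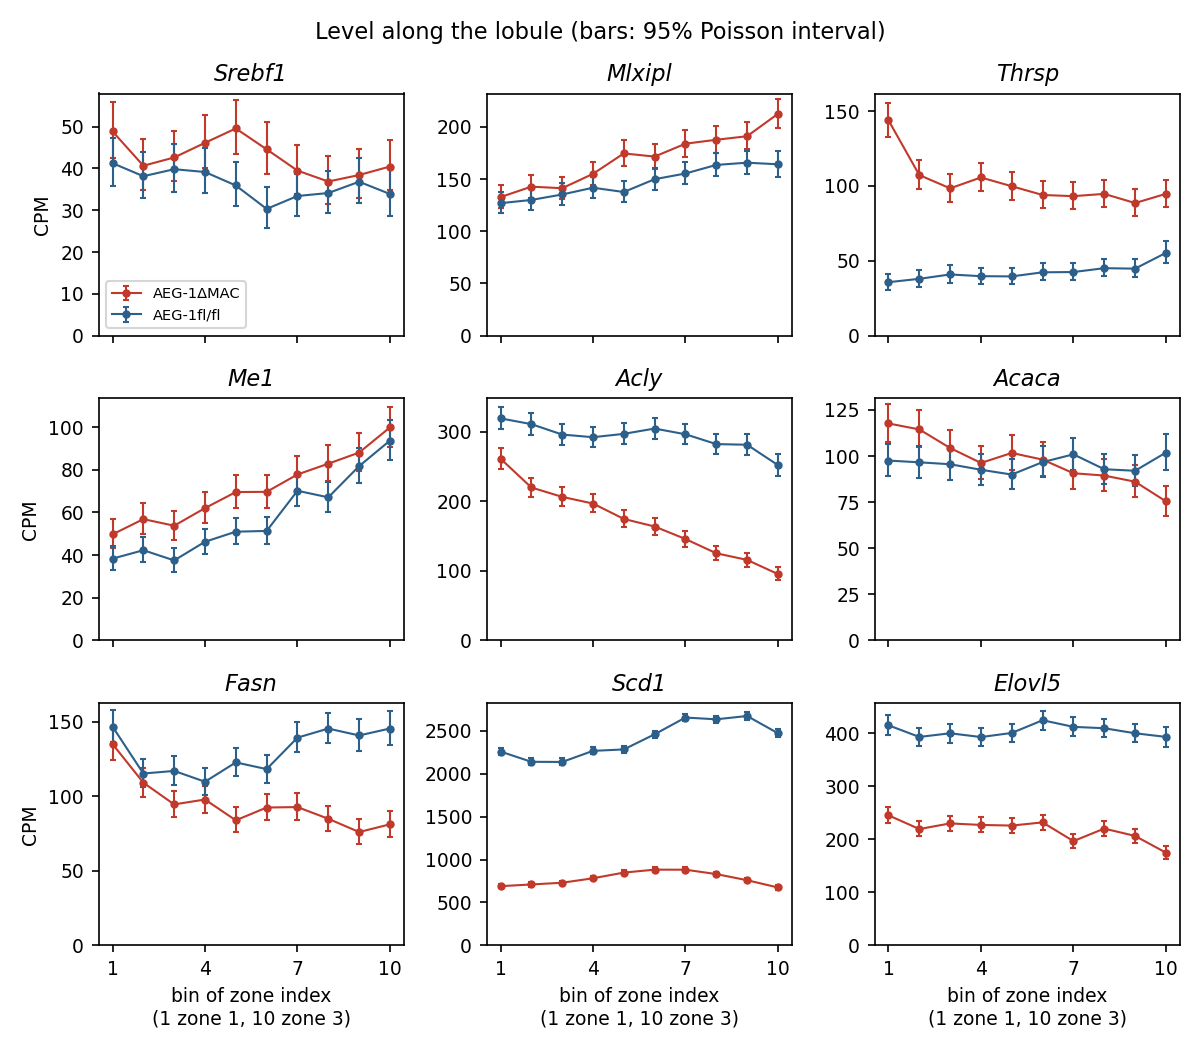
CPM of each gene in 10 equal bins of spots ranked by the zone index within each library, from zone 1 (bin 1) to zone 3 (bin 10), with 95% Poisson intervals as bars and a vertical axis from 0 in every panel. Acly in AEG-1ΔMAC goes down from 261 to 95.4 CPM, Fasn in AEG-1fl/fl is high at both ends, and Me1 goes up in both libraries.

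Among the 9 genes, 1 (Acly) was at least 1.5-fold higher in the zone 1 part than in the zone 3 part in AEG-1ΔMAC, where 2.03% of all genes were, and 0 in AEG-1fl/fl, where 1.75% were. In each library 1 of 9 (Me1) was at least 1.5-fold higher in the zone 3 part, where 2.97% of all genes were in AEG-1ΔMAC against 2.84% in AEG-1fl/fl. The shift between sections was mostly one way. All but Mlxipl had a zonation that was lower in AEG-1ΔMAC, with Srebf1 at -0.01 (-0.24 to 0.22) not apart from 0, and the difference was -0.82 for Acly, -0.62 for Fasn, -0.60 for Thrsp and -0.37 for Acaca. Over all genes it ran from -0.31 at the 5th percentile to 0.29 at the 95th, with a median of 0.01. Scd1 (-0.16), Elovl5 (-0.23), Me1 (-0.24), Srebf1 and Mlxipl lay within that range. As an alternative chosen after seeing the data, spots of both sections were ranked together. The zone 1 part then held 22.9% of the spots of AEG-1ΔMAC but 42.1% of those of AEG-1fl/fl. The differences of Acly, Fasn, Thrsp and Acaca were then -0.77, -0.69, -0.70 and -0.42.

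**Figure D4:**
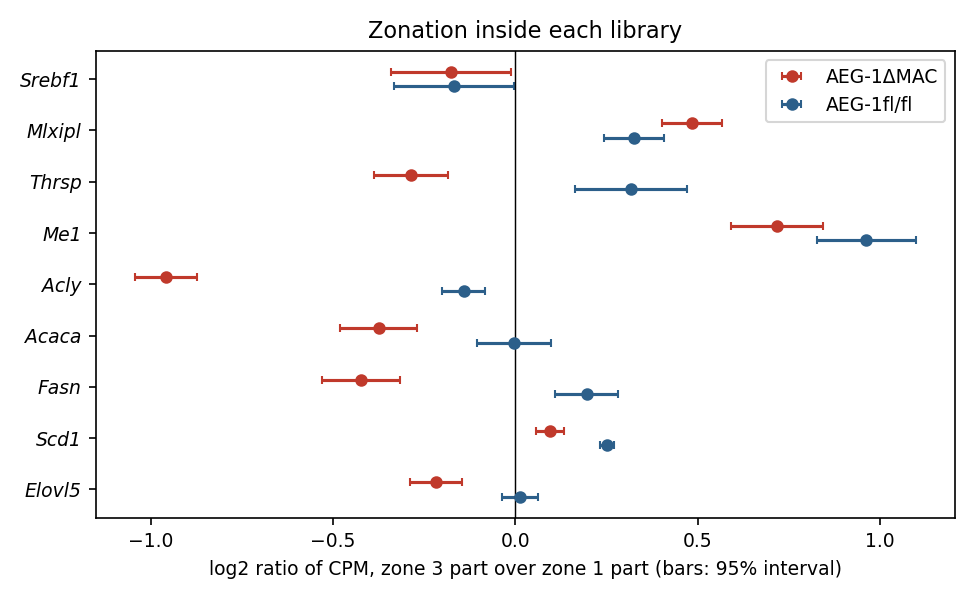
Log2 ratio of CPM, zone 3 part over zone 1 part, of each gene in each library, with 95% intervals as bars and 0 marked by a line. Fasn and Thrsp lie left of 0 in AEG-1ΔMAC and right of it in AEG-1fl/fl, Acly is at -0.96 against -0.14, and Me1 and Mlxipl lie right of 0 in both.

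Across the spots of each section, the lipogenic genes moved together only weakly. The log-normalised value of each gene was correlated with the mean scaled value of the other enzymes over the 2140 and 2540 spots of the sections. The spots of a section share a library, a depth gradient and a lobule axis, so the coefficients are descriptions. Scd1 had the highest in each library, 0.17 and 0.38, or 0.07 and 0.29 in thinned spots, and its correlation with the log UMIs of the spot was 0.35 and 0.14. Fasn had 0.13 and 0.26 (0.04 and 0.18 thinned), and Me1 had -0.01 and 0.17 (-0.03 and 0.13 thinned). The closest pair was Scd1 and Fasn in AEG-1fl/fl, at 0.32 (0.23 thinned), which in AEG-1ΔMAC was 0.07. Of the factors, Srebf1 had 0.03 and 0.02. Mlxipl had 0.03 in AEG-1ΔMAC but 0.19 in AEG-1fl/fl, where it was above Acly, Acaca, Elovl5 and Me1. Thrsp, which was opposite to most enzymes between the mice, had 0.10 and 0.12 within them. Thinned, Thrsp had 0.05 and 0.06 and Mlxipl 0.02 and 0.09, so that in AEG-1fl/fl Mlxipl was then below Elovl5 (0.10) and Me1 (0.13). The mean for Mlxipl, Srebf1 and Thrsp took in all 6 enzymes, whereas that for an enzyme left the enzyme itself out. Over the same 2181 genes the 95th percentile of this coefficient was 0.15 in both libraries. Outside the list, the genes whose spot pattern was most like the enzymes, by the lower of the 2 coefficients, were Igfbp2 (0.24 and 0.27), Hp (0.32 and 0.23), Sephs2 (0.21 and 0.18), Atp5a1 (0.23 and 0.18) and Scp2 (0.18 and 0.32), and none of these is high.

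The genes around the pathway were read from 7 lists, in which 50 of 56 listed genes averaged 10 CPM or more. Of the 50, 4 were at least 1.5-fold higher in AEG-1ΔMAC, whereas 2 were at least 1.5-fold lower, beside 4.3% and 1.79% of all genes. This balance turned when ratios were taken against the median of all genes, with 3 higher and 7 lower. In carbon supply, a list of 7 genes, the median log2 ratio was 0.14. The highest was Pdhb, a subunit of pyruvate dehydrogenase, at 0.40. The lowest was Acss2, which makes acetyl-CoA from acetate, with 155.9 against 233 CPM, a log2 ratio of -0.58. The 4 measured NADPH genes lay close together, from Pgd at -0.16 to H6pd at -0.02, all under the median of all genes. Me1 was above each of these 4, and G6pdx, with only 58 and 51 UMIs, was under the 10 CPM minimum.

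The other genes of elongation and desaturation were on the side of Scd1 and Elovl5 relative to the median of all genes, but not all were lower. Of 10 fixed, 7 averaged 10 CPM or more, and these were each below the median of all genes. Their median log2 ratio was -0.35, and 1 of 7, the elongase Elovl2, was at least 1.5-fold lower, at 239 against 419 CPM (log2 ratio -0.81). Fads1 and Fads2, the desaturases of polyunsaturated fatty acids, named here after their values were seen, had -0.55 and -0.54. Fads2, Elovl5, Fads1 and Elovl2 act in succession on polyunsaturated chains. Elovl3 was the highest at 0.09, and Hsd17b12 and Hacd3 were at 0.01 and -0.00. The median zonation of these 7 was -0.08 in AEG-1ΔMAC against 0.17 in AEG-1fl/fl.

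In the list of ChREBP partners, sugar uptake and ChREBP targets, 3 of 10 were at least 1.5-fold higher in AEG-1ΔMAC. Of all genes, 4.3% were. Above the median of all genes lay 8 of 10. The list was led by Slc2a2, the GLUT2 glucose transporter, at 202 against 110.1 CPM (log2 ratio 0.88), with Txnip and the pyruvate kinase gene Pklr both at 0.84. Fgf21, a ChREBP target under the 10 CPM minimum and so not among the 10, went the other way. It had 162 and 509 UMIs, a log2 ratio of -1.50 (-1.77 to -1.25). Among the 8 genes that control the activation of SREBP-1, for or against, 0 were at least 1.5-fold apart. The highest was Rxra at 0.46 and the lowest was Insig1 at -0.34, which retains SREBP in the endoplasmic reticulum and is itself an SREBP target. Transcript levels do not measure the processing of SREBP-1 or the nuclear entry of ChREBP.

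Of the 7 partners and controllers of acetyl-CoA carboxylase, 1 was at least 1.5-fold higher, Prkaa2, a catalytic subunit of AMPK, at 79.3 against 52.1 CPM (log2 ratio 0.61). Acacb, the mitochondrial carboxylase, was the lowest at -0.40. In fatty acid activation and triglyceride synthesis, 1 of 7 was at least 1.5-fold lower, Gpam, the mitochondrial glycerol-phosphate acyltransferase, at 84.9 against 143.5 CPM (-0.76). Dgat2, which adds the last acyl chain, was the highest at 0.55. Gpam and Dgat2 were named as the lowest and the highest of this list, whose median was 0.22.

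Clock genes were apart between the mice, and lipogenic genes vary with time of day. Of 10 evening-phase genes, 5 averaged 10 CPM or more, and these were at least 1.5-fold higher in AEG-1ΔMAC, where 4.3% of all genes were. They ran from Hlf at a log2 ratio of 0.76 to Dbp at 2.76. Of 4 morning-phase genes, 3 were at least 1.5-fold lower, where 1.79% of all genes were, with Arntl at -0.71. The exception, Clock, was at 0.11. Dbp, with 795 and 130 UMIs (17.5 and 2.58 CPM), reached the minimum only through AEG-1ΔMAC. Cry1, one of the 3, had 8.95 and 13.6 CPM and reached it only through AEG-1fl/fl. The times at which the livers were taken were not given in the sources used here, and what part this had in the values of Thrsp, Scd1 and the other genes was not tested. Of the markers of other cell types, the summed level of the 6 Kupffer cell markers had a log2 ratio of -0.15, and those of cholangiocytes, stellate cells and endothelium lay between -0.03 and -0.01. Single markers were further apart than these sums: Fabp5 was at -1.84 and Marco at -1.38 among the Kupffer cell markers, where Cd5l was at 0.21 and Clec4f at 0.05, and the cholangiocyte marker Sox9 was at -0.91. What part these had in the lipogenic genes was not tested. The 6 markers of adipocytes, which are lipogenic cells too, had -0.90, but this rested on Fabp4 with 1085 and 2240 UMIs: Adipoq had 1 UMI in each library, Plin1 1 and 0, and Lep 0 in both, so 2 of 6 were at 0 in each library.

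**Figure D5:**
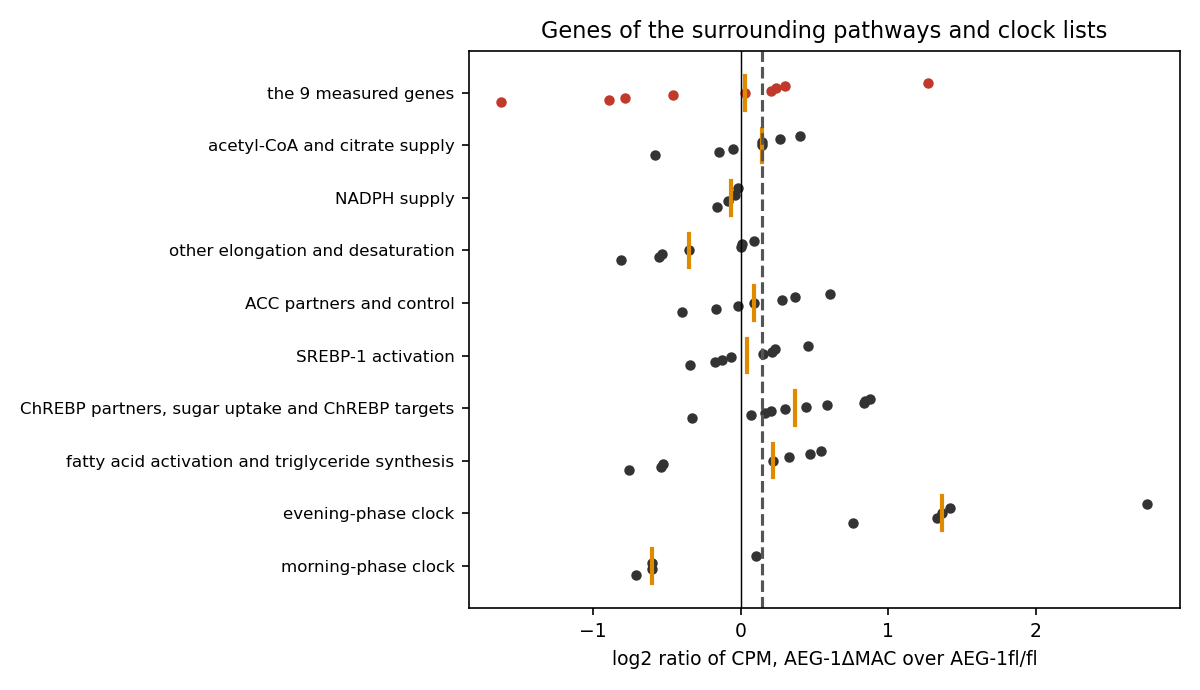
Log2 ratio of CPM between AEG-1ΔMAC and AEG-1fl/fl for the 9 measured lipogenic genes (red) and for the genes averaging 10 CPM or more in each surrounding list (black), with the median of each list as an orange bar and the median of all genes dashed at 0.15. The lipogenic genes spread from -1.62 to 1.27, the other genes of elongation and desaturation lie left of the dashed line, and the evening-phase clock genes lie right of it.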

How the data were processed

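ST of liver was done by the authors on the 10x Visium platform for fixed tissue, in which probe pairs are captured and counted by UMI. Per the labels, Space Ranger 2.0.1 with mm10 was used. The authors deposited raw UMI counts per gene and spot, without normalisation. Because a count depends on the probes of a gene, levels were not compared between genes. As in the study, spots with over 50000 UMIs, under 100 genes or over 7000 genes were removed (9 of 2149 and 3 of 2543 deposited spots), although the study counts all deposited spots as left after this filter. Counts were summed per library and scaled to CPM. At 10 CPM, the minimum for counts of genes, the libraries held 455 and 503 UMIs.

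Groups came from the genotype labels. Ratios have exact conditional binomial (Clopper-Pearson) 95% intervals and CPM exact Poisson 95% intervals, in Python 3.11.15 with numpy 2.4.6, scipy 1.17.1 and pandas 2.3.3. With 1 library per genotype, no p-value was computed. Genes counted as higher or lower had a 1.5-fold or larger ratio and an interval on that side. The calculation was tested on simulated data. Spot values were scaled to 10000 UMIs, log-transformed, and thinned with seed 1 where stated. TMM factors came from edgeR 4.0.16 in R 4.3.3. The genes and lists were chosen with earlier results of these data known. All 9 measured members were named, with the highest and the lowest gene of each list and the 5 genes with the most similar spot pattern. Of the genes this selects, 1 is not reported here. Gene positions came from GENCODE M21 and promoters from RefSeq, where 9 of 10 genes had an entry. Alternatives covered the scaling, the spot filter, averaging over spots, matching on depth, the fold, the zone index and thinning.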

Additional observations from a re-analysis of the deposited data

Results flagged for a closer look

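The direction of Acaca differed between the ends of the lobule. Its log2 ratio, AEG-1ΔMAC over AEG-1fl/fl, was 0.20 (95% interval 0.10 to 0.30) in the zone 1 part and -0.17 (-0.28 to -0.07) in the zone 3 part, with 109.8 against 95.8 CPM and 84.6 against 95.5 CPM. There was 1 library per genotype, so the difference between the parts was not tested. With TMM factors the values were 0.07 (-0.03 to 0.17) and -0.30 (-0.41 to -0.19), so the higher level at the zone 1 end was then not apart from 0, whereas the lower level at the zone 3 end was.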

How the results depend on the processing

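No paired analysis was possible because each genotype had 1 library. Of 54 member log2 ratios recomputed under other settings, 26 moved by less than their counting interval and 28 by more, and the sign changed for Acaca alone, under the 3 other scalings. The scaling set the sign of the median log2 ratio of the members, which was 0.03 as reported, -0.10 with TMM factors, -0.10 with median-of-ratios size factors, -0.11 without the 50 most abundant genes and 0.10 as a mean over spots. At a ratio of at least 2, 1 member (Scd1) was lower. Fasn joined the 3 reported with size factors, without the 50 most abundant genes or against the median of all genes. Of the pathway genes, 7 were lower (and 3 higher) against the median of all genes and 4 lower at a mean of at least 1 CPM, where 2 were as reported. With the outer 10% of spots at each end, 4 members were 1.5-fold higher at the zone 1 end in AEG-1ΔMAC, and 2 at the zone 3 end in each library. With spots in 3 parts and a ratio of at least 2, 0 members were higher at either end in either library. At the outer 10%, the zonation of Scd1 in AEG-1ΔMAC was -0.032 and that of Fasn in AEG-1fl/fl was -0.013, both with the sign turned. Of 90 zonation values, 74 stayed within their intervals. Of 36 spot correlations recomputed after thinning or within bins of the zone index, 16 moved by more than a nominal 95% interval over spots, which treats spots as independent. Counts limit Srebf1 most, with 1944 and 1824 UMIs.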
